A study of Mus musculus with 50 samples.

Results

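The 9 genes that control how the liver makes, releases and breaks down glucose were followed across all 50 livers: Pcx, Pck1, Fbp1, G6pc, Slc37a4, Slc2a2, Gckr, Pklr and Pfkfb1. They were chosen by name as the enzymes, carriers and regulators of gluconeogenesis and glycolysis, and all 9 were present among the 12185 genes of the deposited expression table. Each also passed the filter on low values, a mean of at least 1 CPM (reads of a gene scaled to the size of the library, as normalized by the study) over the 50 libraries, which left 11436 genes for testing. No member lies on chromosome 4 or 6, the chromosomes that segregated in these mice.

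The livers came from mice, taken here as male, that carried A/J-derived chromosomes 4 and 6 in a C57BL/6J genome, a design built to ask how alleles on 1 chromosome change the effect of alleles on the other. The study compared males and females of this cross, and its text does not give the sex of the mice whose livers were sequenced. The labels call the animals adult F2 mice, whereas the study describes offspring of a backcross a few weeks old, so that each animal is its own combination of A/J and C57BL/6J segments. All 50 libraries form a single group with no treatment or control, and the genotypes of the animals were not used here. The study fasted the mice overnight and sampled 1 lobe of the liver, so the levels describe fasted livers only. Each label holds a library number between 1 and 59 and an animal number. Animal numbers start again at library number 31, and the 28 libraries numbered up to 30 are called the first series here and the 22 later ones the second. There are 48 distinct animal numbers, and 2 of them appear on a pair of libraries. Of these, library numbers 22 and 55 held 52.8 and 24.3 CPM of Pfkfb1 and 25.99 and 45.04 CPM of Pklr. The main fits were therefore also run without the libraries that share an animal number. Counted reads per library ranged from 11965594 to 29976557 with a median of 13620584. The labels do not say which animals shared a litter or cage, so the p-values measure the spread between these samples only.

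The libraries held liver: Alb, the albumin gene, ran from 57039 to 94538 CPM, and all 7 hepatocyte markers in the table were present in every library. Markers of other cell types summed to 244.9 to 451 CPM for Kupffer cells and leukocytes, 197.1 to 296.3 for endothelium, 99.8 to 241 for stellate cells, 16.99 to 41.8 for bile duct and 94.7 to 302 for red blood cells, and none of the 8 pancreatic acinar markers was in the table. Library number 24 stood apart in female-type liver genes, which summed to 55.01 to 805 CPM over the livers. The main fits, the member pairs, the mean levels and the leading counts over gene lists were also computed without it, and other results were not. In bulk liver, fewer cells of a type and less RNA per cell cannot be told apart.

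Glucose made by the liver is built from pyruvate and other precursors. Pyruvate carboxylase (Pcx) in the mitochondrion, phosphoenolpyruvate carboxykinase (Pck1) and fructose bisphosphatase (Fbp1) in the cytosol, and glucose-6-phosphatase (G6pc) in the endoplasmic reticulum carry out the steps that glycolysis cannot reverse; Slc37a4 carries glucose-6-phosphate to that phosphatase, and Slc2a2 (GLUT2) moves glucose across the plasma membrane. In the other direction, Gckr is a nuclear protein that restrains the uptake of glucose into metabolism, liver pyruvate kinase (Pklr) makes pyruvate, and the bifunctional enzyme Pfkfb1 sets the level of fructose 2,6-bisphosphate, which speeds glycolysis and slows Fbp1. In the fasted liver glucagon, through cAMP, raises Pck1 and G6pc, whereas glucose and insulin after a meal raise Pklr.

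The 250 bases before the start sites of Pklr, Slc2a2, Pck1 and G6pc are shown because the first pair varied together more closely than any other members did and the second pair, the best known fasting-induced genes of the pathway, did not pass the same test. The sequences are RefSeq's, on the plus strand of GRCm38.p6, at chr3:89136373-89136622 for Pklr, chr3:28697653-28697902 for Slc2a2, chr2:173152823-173153072 for Pck1 and chr11:101367466-101367715 for G6pc. For Pklr, which has 2 listed starts, the window of the downstream start is shown, since the upstream one belongs to the red blood cell form. Capitals mark matches to the motifs named after the sequences.
Pklr: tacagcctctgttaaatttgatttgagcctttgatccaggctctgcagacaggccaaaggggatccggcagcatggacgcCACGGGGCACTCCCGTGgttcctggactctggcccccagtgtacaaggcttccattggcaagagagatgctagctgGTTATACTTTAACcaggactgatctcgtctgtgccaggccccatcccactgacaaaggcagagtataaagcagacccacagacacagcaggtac
Slc2a2: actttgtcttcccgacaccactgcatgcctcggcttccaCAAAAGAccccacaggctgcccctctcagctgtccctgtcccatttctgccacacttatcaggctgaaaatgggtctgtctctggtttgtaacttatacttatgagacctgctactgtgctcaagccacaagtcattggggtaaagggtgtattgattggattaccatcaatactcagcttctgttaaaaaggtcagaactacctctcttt
Pck1: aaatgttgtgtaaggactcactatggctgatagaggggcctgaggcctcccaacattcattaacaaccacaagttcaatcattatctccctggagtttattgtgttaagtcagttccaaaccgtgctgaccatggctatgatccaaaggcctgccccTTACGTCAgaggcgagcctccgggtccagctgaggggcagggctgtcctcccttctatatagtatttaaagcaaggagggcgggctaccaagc
G6pc: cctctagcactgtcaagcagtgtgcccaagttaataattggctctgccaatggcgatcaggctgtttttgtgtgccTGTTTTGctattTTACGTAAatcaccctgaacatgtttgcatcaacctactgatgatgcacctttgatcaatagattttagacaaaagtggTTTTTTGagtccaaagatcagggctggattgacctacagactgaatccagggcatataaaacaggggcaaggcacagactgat

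The 4 motifs were searched on both strands of these windows in all 9 members (16 windows) and in all 32851 windows of the same length. A cAMP response element-like match (TNACGTNA), present in 3.83% of all windows, lay 93 bases before the start of Pck1, as TTACGTCA, and 162 bases before that of G6pc, as TTACGTAA. A carbohydrate response element-like match (CACGNG, any 5 bases, then CNCGTG), found in 13 windows or 0.0396% of all, lay 170 bases before the start of Pklr, as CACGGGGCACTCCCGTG, and an HNF1-like match (GTTA, any 4 bases, then TTAAC, in 0.170% of windows) lay 94 bases before it. Insulin response sequence-like matches (TNTTTTG or its reverse complement) were common, in 16.9% of all windows, and occurred at 2 places in G6pc (the nearer 83 bases before the start), at 83 bases in Gckr and at 211 bases in Slc2a2. Pcx, Fbp1, Slc37a4 and Pfkfb1 had no match in these windows. The Pklr and Slc2a2 windows shared none of the 4 motifs.

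The gluconeogenic enzymes Pck1 and Fbp1 had the highest levels per kilobase of exon among the members. Pck1 (ENSMUSG00000027513, chr2:173153048-173159273) had a lowest value of 2303, a median of 3509 and a highest of 4833 CPM (3535 ± 640, SD, n = 50) and ranked 36 among all genes by mean CPM, which is not scaled to gene length. Fbp1 (ENSMUSG00000069805, chr13:62864753-62888282) ranged from 714 through a median of 912 to 1233 CPM (911 ± 111). Pcx (ENSMUSG00000024892, chr19:4510472-4621752) ranged from 412 through 630 to 856 CPM (615 ± 97.6). Fbp1 thus kept within a 1.73-fold range over the 50 livers, the narrowest of the 9, and Pck1 and Pcx kept within ranges of 2.099-fold and 2.08-fold.

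The glucose-6-phosphatase system varied more. G6pc (ENSMUSG00000078650, chr11:101367561-101377903) had a lowest value of 206, a median of 390 and a highest of 754 CPM (395 ± 109), a 3.66-fold range. Slc37a4, its glucose-6-phosphate carrier (ENSMUSG00000032114, chr9:44396852-44402968), ranged from 134 through 224 to 354 CPM (232 ± 47.7). Slc2a2 (ENSMUSG00000027690, chr3:28697903-28731359) ranged from 77.8 through 152 to 239 CPM (153 ± 31.95). The coefficient of variation of G6pc was 27.5%, at percentile 90 among the 200 genes nearest to it in mean level, whose median was 14.1%.

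Per kilobase, the regulators and the glycolytic enzyme were the scarcest. Gckr (ENSMUSG00000059434, chr5:31297443-31327314) ranged from 59.2 through 94.8 to 145 CPM (94.5 ± 16.9). Pklr (ENSMUSG00000041237, chr3:89136142-89146784) ranged from 23.9 through 39.8 to 57.3 CPM (40.6 ± 8.86). Pfkfb1 (ENSMUSG00000025271, chrX:150588229-150643878) ranged from 13.998 through 26.9 to 52.8 CPM (27.2 ± 8.91), and its coefficient of variation of 32.8% was the highest of the 9, at percentile 96 of its 200 neighbours in level. The start of Pfkfb1 overlaps Apex2 on the opposite strand (chrX:150519519-150589868); the strand setting of the counting is not given in the sources used here, so reads of the pair may have been mixed and the level of Pfkfb1 is uncertain. Even for Pklr, with 313 to 1545 reads per library, counting error made up 3.51% of the variance, and for Pck1 it was 0.0585%, so nearly all of the spread exceeded counting error.

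**Figure D1:**
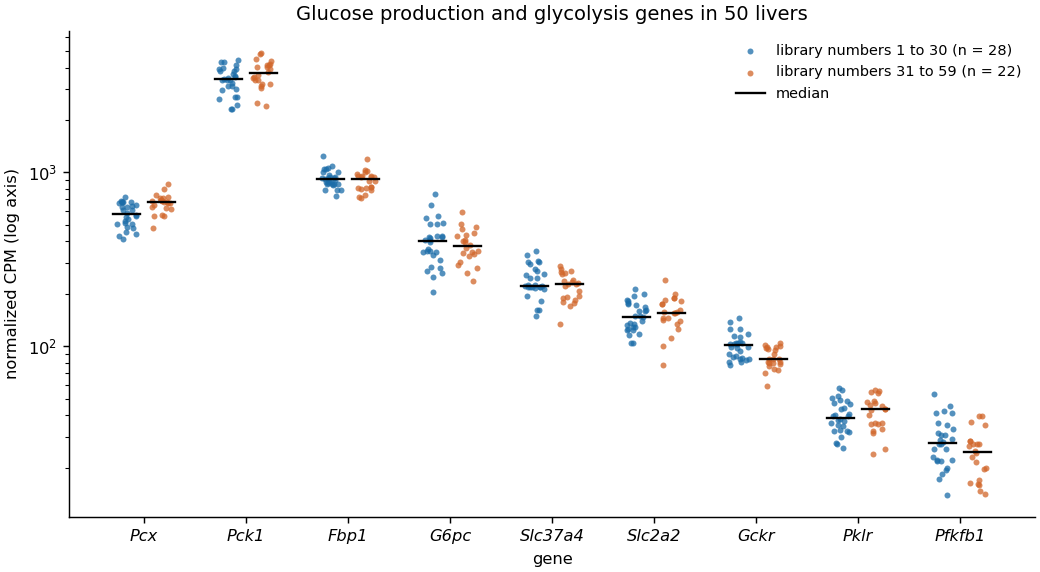
Normalized CPM (log axis) of the 9 genes in each of the 50 livers, with 1 point per liver coloured by library series (28 and 22 livers) and the median of each series as a bar. Pck1 lies above the rest, Pcx is higher and Gckr lower in the second series, and G6pc and Pfkfb1 spread the most.

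Compared per kilobase of exon, the order of mean levels was Pck1 (1031 CPM per kb), Fbp1 (535), G6pc (164), Pcx (129), Slc37a4 (81.2), Slc2a2 (26.5), Gckr (21.8), Pklr (12.5) and Pfkfb1 (6.76). Among neighbours in this order, the ranges over the 50 livers did not overlap for Fbp1 and G6pc or for Slc37a4 and Slc2a2. G6pc exceeded Pcx in 38 of 50 livers, and Slc2a2 exceeded Gckr in 38 of 50, so both of these neighbouring pairs changed order between livers. Pklr exceeded Pfkfb1 in 47 livers, and each of the other neighbours kept its order in all 50.

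The closest relation among the members joined Pklr, which makes pyruvate from phosphoenolpyruvate, and Slc2a2, the glucose carrier of the plasma membrane. Pklr and Slc2a2 had Pearson's r = 0.797 and Spearman's rho = 0.774 on the log2 scale over 50 livers, each with a permutation p of 1e-05, the smallest that 100000 permutations can give. Out of 11435 other genes, Slc2a2 was the one most correlated in absolute value with Pklr, and Pklr the one most correlated with Slc2a2. In the limma fits of all genes on either gene the larger adjusted p was 1.41e-08, with 2.49% of genes passing the threshold of 0.05 for Pklr and 0.638% for Slc2a2. Of the 10 livers highest in Pklr 5 were among the 10 highest in Slc2a2, and of the 10 lowest 7 were among the 10 lowest, while none stood at opposite ends. The relation held within the first series (r = 0.748) and the second (r = 0.844), and without library numbers 34 and 47, the lowest in both (r = 0.755). Both genes lie on chromosome 3 but far apart by the coordinates above. The correlation of Pklr with the 8 genes of the table within 100 kb of it ran from -0.17 to 0.17. Both Pklr and Slc2a2 also rose with animal number, given further on, and the part of that in this relation was not tested.

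Slc37a4, the carrier that feeds glucose-6-phosphate to the phosphatase, varied with Pfkfb1 and with Pcx. Slc37a4 and Pfkfb1 had r = 0.557 and rho = 0.582 (permutation p = 4e-05 and 1e-05, n = 50; larger limma adjusted p = 0.000693, with 18.4% and 12.7% of genes called), with r = 0.583 in the first series and 0.472 in the second. Pcx and Slc37a4 had r = 0.431 and rho = 0.518 (permutation p = 0.00175 and 0.00022, n = 50; larger limma adjusted p = 0.0218, with 9.86% of genes called for Pcx), with r = 0.650 and 0.507 within the series. By absolute r, Pfkfb1 ranked 309 among all other genes for Slc37a4, and Slc37a4 ranked 249 for Pfkfb1. Slc37a4 ranked 721 for Pcx, and Pcx ranked 1211 for Slc37a4, so many other genes were closer in both pairs. In the 22 livers of the second series alone neither pair passed the test, each with a limma adjusted p of 0.414. Library number 22, which shares its animal number with another library, was highest in both Slc37a4 and Pfkfb1. Their r was 0.474 without library numbers 22 and 31. This pair and Pcx with Slc37a4 kept their calls once all libraries that share an animal number were left out. Slc37a4 and Pcx also rose with animal number, and the part of that in these relations was not tested. G6pc and Slc37a4, whose products form a single enzyme system, had r = -0.21 (rho = -0.26; limma adjusted p = 1.00).

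Pcx and Gckr moved in opposite directions over all livers (r = -0.41, rho = -0.41, permutation p = 0.00276 and 0.00323, n = 50; larger limma adjusted p = 0.0432, with 6.03% of genes called for Gckr), and r was -0.38 without library numbers 4 and 7. Within the series r was -0.35 and -0.05, and with the series as a covariate it was -0.25 with a limma adjusted p of 0.311. The series difference of both genes, given further on, thus moved with this relation, and the call was also lost on whole reads in edgeR (adjusted p = 0.0620) and without the libraries that share an animal number (limma adjusted p = 0.0579).

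The remaining 32 of the 36 pairs did not pass the test, with r between -0.26 and 0.449, and 23 pairs had an absolute r under 0.2. Pck1 and G6pc, the pair with cAMP response element-like matches, had r = 0.285 and rho = 0.320 (permutation p = 0.0444 and 0.0239, n = 50). In the fits across all genes their limma adjusted p was 0.153 with Pck1 as predictor and 0.932 with G6pc. Library number 15 held both the highest G6pc and the lowest Pck1 of all livers, and without library numbers 15 and 30 r was 0.416. Pcx rose with Slc2a2 (r = 0.449) and Pklr (r = 0.402) when Pcx was the predictor, with limma adjusted p = 0.0156 and 0.0358, but with the other gene as predictor the values were 0.0763 and 0.0774, so these pairs were not called. Over all 9 members as predictors 8.21% of gene tests were called. None of the relations between members differed between the series past the threshold in limma (0 of 72 interaction tests called, and 3 at an unadjusted p under 0.05); the smallest adjusted p was 0.0842 for Gckr and Pklr, with r = -0.30 in the first series and 0.535 in the second.

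**Figure D2:**
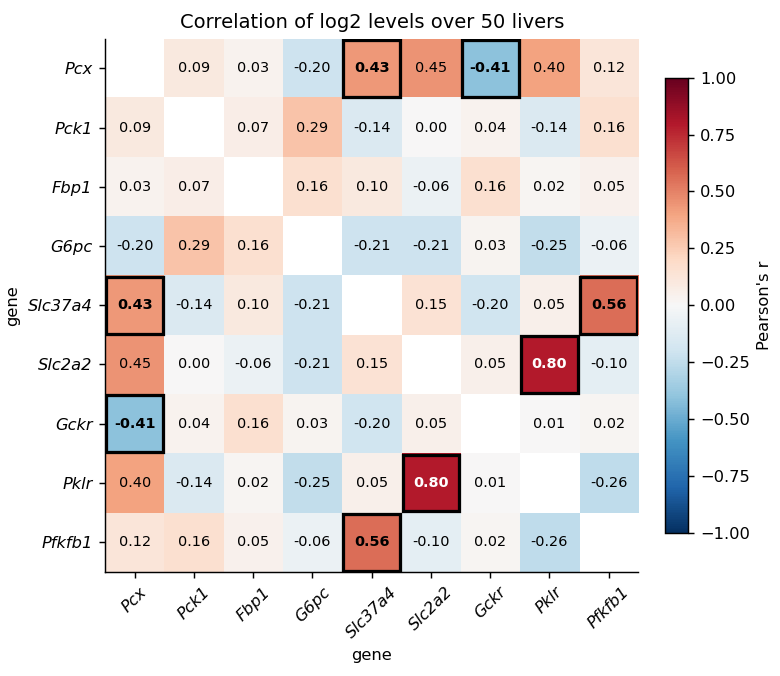
Pearson's r between the log2 levels of each pair of the 9 genes over 50 livers, from blue (negative) to red (positive). The 4 pairs with a limma adjusted p under 0.05 in both directions are framed, led by Pklr with Slc2a2 at 0.797; Pck1, Fbp1 and G6pc have no framed pair.

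**Figure D3:**
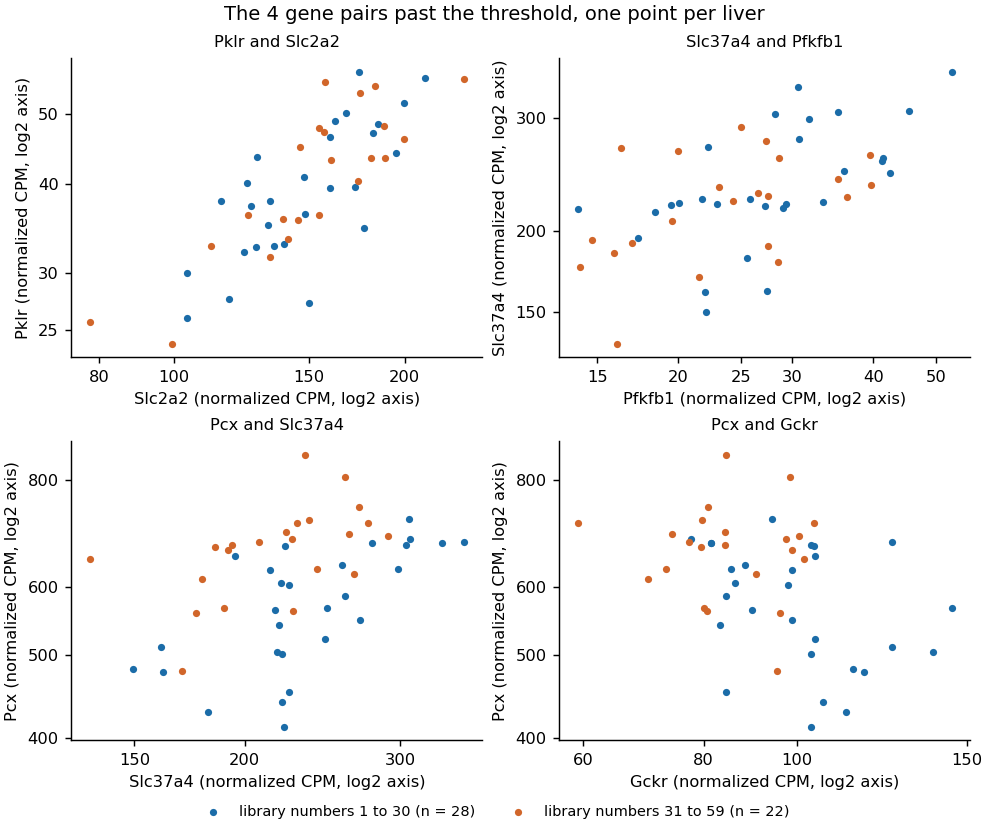
Normalized CPM of the 4 called pairs (log2 axes), 1 point per liver, coloured by library series (28 and 22 livers). Pklr rises with Slc2a2 in both series, whereas in the plot of Pcx against Gckr the 2 series are shifted apart.

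Genes outside the set showed what else varied with each member. Tkfc, the triokinase of fructose metabolism, and Slc10a1, the bile acid importer, were the most positive genes outside the 9 for Pklr (r = 0.776 and 0.684) and also for Slc2a2 (0.633 and 0.687), and Gpat4, an enzyme of glycerolipid synthesis, was the most negative for both (r = -0.66 and -0.61). With Pklr as predictor, 2 of 21 carbohydrate and insulin response genes rose, Tkfc (by 0.21 log2 units per SD of Pklr, SE 0.025, limma adjusted p = 7.9e-08) and the malic enzyme Me1 (0.11, adjusted p = 0.0370), and none fell, where 1.62% of all genes rose and 0.875% fell. Gpd1 (0.13, adjusted p = 0.00303), the cytosolic glycerol phosphate dehydrogenase, and the liver phosphorylase Pygl (0.09, adjusted p = 0.0066) rose as well, as did Pdk1 (0.15, adjusted p = 0.00092), a kinase that shuts off pyruvate dehydrogenase, and the dicarboxylate carrier Slc25a10 (0.11, adjusted p = 0.0253) in the same limma fit. The glycolytic enzyme Aldoa fell by 0.13 (adjusted p = 0.0210), and the periportal genes Sds and Etnppl fell by 0.17 and 0.13 (adjusted p = 0.0473 and 0.0124). With Slc2a2 as predictor, where 0.376% of all genes rose and 0.262% fell, Tkfc alone passed the test among the lists of metabolic and clock genes (0.17, SE 0.030, limma adjusted p = 0.00154).

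Slc37a4 varied with many of the shared steps of glycolysis. With it, 8 of 22 other glycolysis and gluconeogenesis enzymes rose and none fell, where 9.24% of all genes rose and 9.16% fell. Gpi1, Tpi1, Gapdh, Pgk1, Pgam1 and Eno1 were among the 8 that rose. Of the 23 genes of this list present in the data, 2 lie on chromosome 4 and 4 on chromosome 6. Those chromosomes segregated in these mice, and the part of local alleles was not tested. Gapdh rose by 0.18 log2 units per SD of Slc37a4 (SE 0.030, limma adjusted p = 3.39e-05) and Pgk1 by 0.09 (SE 0.017, adjusted p = 0.000129). Of 17 enzymes of pyruvate entry and the shuttles 10 rose, led by the mitochondrial malate dehydrogenase Mdh2 (0.13, adjusted p = 7.4e-06) and its cytosolic partner Mdh1 (0.10, adjusted p = 0.000287), and none fell. The median slope was 0.06 for both lists, against 0.00 for all genes. Of 21 carbohydrate and insulin response genes 6 rose and Scd1, the stearoyl-CoA desaturase, fell by 0.22 (adjusted p = 0.0249). Thrsp, a lipogenic gene, rose by 0.59 (SE 0.078, adjusted p = 4.98e-07). Genes of other kinds moved with Slc37a4 too: 4 of 5 red blood cell markers rose and Alas2 fell, 5 of 11 male-type liver genes fell, and among female-type genes 3 of 7 rose and 1 fell. Of hepatocyte markers 4 of 7 rose (Alb, Apoa1, Ahsg and Cps1), of stellate cell markers 2 of 6 (Dcn and Ecm1) and of endothelial markers 2 of 6 (Lyve1 and Pecam1), and none of these fell. Over the 50 livers the summed red blood cell markers ran from 94.7 to 302 CPM and the summed male-type genes from 605 to 6584 CPM, and the part of the cell type markers was not tested. With a sex-dependent gene score (the mean standardized level of 11 male-type genes minus that of 13 female-type genes) as a covariate 7 of 22 and 10 of 17 rose. Of the 11 male-type genes 3 lie on chromosome 4 and 1 on chromosome 6, and the part of local alleles in this score was not tested, here or further on. The genes nearest to Slc37a4 were Ahcy, which clears S-adenosylhomocysteine (r = 0.798), and, at the negative end, Irgm2, an interferon-induced GTPase (r = -0.82), and the chemokine Cxcl12 (r = -0.82).

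Pck1 varied with fasting-responsive regulators on the one side and lipogenic genes on the other. Of 29 fasting and cAMP response genes 5 rose with it, Foxo3, Cebpb, Klf15, Sesn2 and Tat, and Onecut1 fell, where 5.75% of all genes rose and 5.42% fell. Foxo3, a transcription factor restrained by insulin, rose by 0.19 log2 units per SD of Pck1 (SE 0.037, limma adjusted p = 0.000736), and Klf15, a transcription factor of amino acid catabolism, by 0.19 (SE 0.038, adjusted p = 0.00116). Of 21 carbohydrate and insulin response genes 5 fell and none rose: Srebf1, Arrdc4, Fasn, Elovl6 and Pgd. Fatty acid synthase (Fasn) fell by 0.21 (SE 0.054, adjusted p = 0.00934) and Srebf1, the transcription factor of lipogenesis, by 0.26 (SE 0.076, adjusted p = 0.0228) in the limma fit. Fewer of these fell once a sex-dependent gene score entered the fit (1 of 21), and 5 of 11 male-type liver genes rose with Pck1. Of 11 pericentral markers 3 rose (Cyp2e1, Lect2 and Lgr5), and of 6 stellate cell markers 3 fell (Dcn, Colec11 and Ecm1) and none rose; the part of these cell markers was not tested. Of 15 clock and output genes 3 rose, Nr1d1 (0.34, limma adjusted p = 0.0148), Nr1d2 and Tef. Npas2 (-0.45, limma adjusted p = 0.00233) and Arntl fell. The slope was above 0 for 12 of the 15, with a median of 0.12 against 0.00 for all genes. With animal number Fasn, Elovl6, Pgd and Npas2 rose and Klf15 and Nr1d2 fell, while Pck1 tended to fall without a call, given further on. The other genes named here from the fasting, carbohydrate and clock lists were not called with animal number. Its part in these relations was not tested.

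The level of Pfkfb1 moved with genes of the circadian clock. Of 15 clock and output genes 7 rose with it (Dbp, Tef, Nr1d1, Per2, Per3, Cry2 and Ciart) and Npas2 fell, where 6.29% of all genes rose and 6.37% fell. Ciart, a repressor of the clock, rose by 0.57 log2 units per SD of Pfkfb1 (SE 0.117, limma adjusted p = 0.000563), Nr1d1, the nuclear receptor REV-ERB alpha, by 0.42 (SE 0.088, adjusted p = 0.000715) and Dbp, a clock-driven transcription factor, by 0.45 (SE 0.126, adjusted p = 0.0117). Dbp itself ran from 2.23 to 36.1 CPM over the livers. Its isozyme Pfkfb2 also rose with Pfkfb1 (0.22, SE 0.050, adjusted p = 0.00241), and Srebf1 fell by 0.27 (SE 0.075, adjusted p = 0.00996). The nearest gene, Apex2 (r = 0.862), is the overlapping gene named above and was not read as a relation; the next were Gne, the first enzyme of sialic acid synthesis (r = 0.793), and Dedd2 (r = 0.778), with r of 0.836 and 0.774 in the first series and 0.804 and 0.785 in the second.

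Fbp1, the steadiest member, varied with amino acid and periportal genes. Of 19 genes of precursor supply 5 rose with Fbp1 and none fell: Gpt, Sds, Gls2, Agxt and Slc38a3. Agxt, the alanine-glyoxylate aminotransferase, rose by 0.18 log2 units per SD of Fbp1 (SE 0.027, limma adjusted p = 8.65e-05), and Gls2, the liver glutaminase, by 0.14 (SE 0.029, adjusted p = 0.00182). Of 17 pyruvate entry and shuttle enzymes 7 rose, led by the pyruvate carrier subunit Mpc1 (0.13, adjusted p = 0.000947), and of 12 periportal hepatocyte markers 5 rose (Hsd17b13, Ass1, Arg1 and, shared with the supply list, Sds and Gls2), while 2 of 11 pericentral markers, Slc1a2 and Axin2, fell; 7.19% of all genes rose and 5.38% fell. Both rising counts shrank in other fits: with the share of reads in the 10 highest genes as a covariate, 3 of 17 and 2 of 12 rose. With the sex-dependent gene score 3 of 17 and 3 of 12 rose, and 4 of 11 male-type genes fell with Fbp1 (Hsd3b5, Slco1a1, Selenbp2 and C6) while 2 of 7 female-type genes rose (Cyp2b9 and Cyp2a4). Of 6 endothelial markers 2 fell (Kdr and Ptprb), whose part was not tested. The share of the 10 highest genes ran from 29.4% to 37.01% of the values in a library.

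Pcx varied with Cps1 and with genes of fat synthesis. Its nearest genes were Cpn2, a subunit of a plasma carboxypeptidase (r = 0.783), Ddb1, of DNA repair (r = 0.780), and Cps1, the first enzyme of the urea cycle and a mitochondrial neighbour of Pcx (r = 0.776), with r for Cps1 of 0.774 in the first series and 0.550 in the second. With Pcx, 5 of 21 carbohydrate and insulin response genes rose (Thrsp, Fasn, Acaca, Acacb and Pgd), where 5.03% of all genes rose and 4.84% fell, and Mlxipl, which encodes the carbohydrate-responsive factor ChREBP, fell by 0.21 log2 units per SD (SE 0.047, limma adjusted p = 0.00327). With Gckr as predictor 3.81% of all genes rose and 2.22% fell. Mlxipl rose by 0.25 (SE 0.044, limma adjusted p = 0.000175), and Acacb, the mitochondrial acetyl-CoA carboxylase, fell by 0.23 (SE 0.052, adjusted p = 0.00278), Me1 by 0.14 (SE 0.028, adjusted p = 0.000998) and Cps1 by 0.18 (SE 0.045, adjusted p = 0.00702). Of 7 hepatocyte markers 4 rose with Pcx (Alb, Apoa1, Fga and Cps1), of 6 endothelial markers 2 (Kdr and Ptprb) and of 5 red blood cell markers 2 (Hba-a1 and Hba-a2), and none fell; the part of these was not tested. Pcx, Gckr, Mlxipl and Cps1 (0.40 on the log2 scale, SE 0.088, limma adjusted p = 0.00174) each differed between the library series, and the part of that in these relations was not tested for single genes of the lists. Thrsp, Fasn, Acaca, Acacb, Pgd and Cps1 also rose with animal number, as did Pcx, and Mlxipl fell with it. The part of animal number in these relations was not tested either.

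Few genes varied with G6pc. In the limma fit on G6pc 7 genes of 11435 were called (0.0612%), 0.0437% rising and 0.0175% falling. The nearest were Slc25a25, a mitochondrial ATP-Mg/phosphate carrier (r = 0.653, adjusted p = 0.000833), which ran from 25.2 to 426 CPM, and Sik1, a cAMP-induced kinase that restrains gluconeogenic transcription (r = 0.608, adjusted p = 0.00579). Sik1 rose by 0.41 log2 units per SD of G6pc (SE 0.074) and was the only 1 of 29 fasting and cAMP response genes to pass. Ppp1r15a, a stress-induced phosphatase subunit (r = 0.554, limma adjusted p = 0.0386), rose too, and Dph2 and Arrdc3 fell (r = -0.57 and -0.54).

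**Figure D4:**
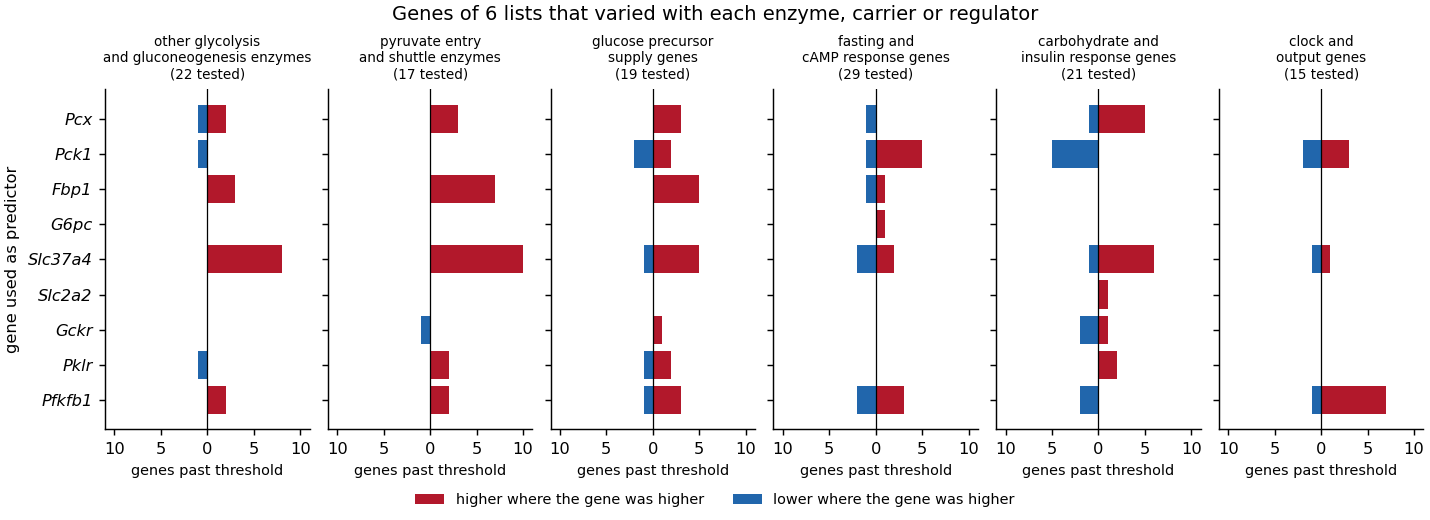
Number of genes of 6 lists that rose (red, to the right) or fell (blue, to the left) with each of the 9 genes at a limma adjusted p under 0.05; the number tested is above each panel. Slc37a4 has 8 and 10 rising genes in the first pair of lists, Pfkfb1 has 7 rising clock genes, and G6pc and Slc2a2 have at most 1 in any list.

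Between the library series Pcx and Gckr differed. Pcx ranged from 412 through a median of 576 to 721 CPM in the first series and from 479 through 674 to 856 CPM in the second. Gckr ranged from 77.7 through 101.1 to 145 CPM in the first and from 59.2 through 84.1 to 104 CPM in the second. The ranges overlapped for both genes, with the second series higher for Pcx and lower for Gckr. Pcx rose by 0.22 on the log2 scale (SE 0.060, limma adjusted p = 0.00931) and Gckr fell by 0.23 (SE 0.062, adjusted p = 0.00934), 2 of 9 members where 13.8% of all genes were called, 7.3% rising and 6.47% falling. The largest of the other members' differences were those of Pfkfb1 (-0.23, SE 0.123, adjusted p = 0.210) and Pck1 (0.13, SE 0.075, adjusted p = 0.252), and neither passed the threshold. Pcx and Gckr kept the call in each alternative run for the series. Of 6 endothelial markers 2 rose in the second series (Kdr and Ptprb), and of 6 stellate cell markers 2 fell (Colec11 and Des). Reads per library differed as well, with medians of 14432604 and 13284110.5, and what else set the series apart is not in the labels, so the series cannot be told apart from batch, litter or time.

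With animal number, 4 members rose and none fell, where 7.48% of all genes rose and 6.75% fell, 14.2% in all. Per 100 numbers Slc37a4 rose by 0.34 on the log2 scale (SE 0.068, limma adjusted p = 0.000795), Pklr by 0.28 (SE 0.079, adjusted p = 0.0139), Slc2a2 by 0.23 (SE 0.079, adjusted p = 0.0458) and Pcx by 0.21 (SE 0.059, adjusted p = 0.0116). Pck1 fell short of the threshold (-0.18, SE 0.072, adjusted p = 0.0841). The animal numbers leave 1 wide gap, with 9 livers below it and 41 above.

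The calls were not kept without the livers below the gap. Slc37a4 ranged there from 134 through 182 to 248.2 CPM, against a median of 229.5 above the gap. The medians below and above were 563 and 663 CPM for Pcx, 32.7 and 40.9 for Pklr and 128 and 160.0 for Slc2a2, so all 4 genes were lower below the gap, with overlapping ranges. In the 41 livers above the gap none of the 9 members passed the limma test, a check added after the values were seen. The limma adjusted p was 0.0859 for Slc37a4, 0.104 for Pklr, 0.282 for Pcx and 0.563 for Slc2a2. An unadjusted p under 0.05 was reached by 4 of 9, namely Slc37a4, Pklr, Pck1 and G6pc. G6pc fell by 0.37 per 100 numbers above the gap (SE 0.164, limma adjusted p = 0.157). The slopes there were 0.30 per 100 numbers for Slc37a4 (SE 0.111), 0.32 for Pklr (SE 0.124), 0.18 for Pcx (SE 0.098) and 0.14 for Slc2a2 (SE 0.129), so that for Slc37a4, Pklr and Pcx the slopes stayed near those in all livers while their standard errors were larger. Above the gap r with animal number was 0.387 for Slc37a4 (rho = 0.353, permutation p = 0.0125 and 0.0241) and 0.370 for Pklr (rho = 0.400, permutation p = 0.0177 and 0.00978), out of 18 relations computed on the 2 sides of the gap. Without the 2 livers of most distant number these were 0.278 and 0.384. For Pck1 r was -0.40 (rho = -0.42, permutation p = 0.00926 and 0.00654, limma adjusted p = 0.0763). G6pc had r = -0.33 (rho = -0.31, permutation p = 0.0366 and 0.0525), and r = -0.23 without the 2 most distant. Below the gap Slc37a4 had r = 0.906 and rho = 0.883 (exact permutation p = 0.00064 and 0.00308, n = 9), and 0.759 without the 2 most distant. Other genes moved with animal number as well: 8 of 22 other glycolysis and gluconeogenesis enzymes and 9 of 17 pyruvate entry and shuttle enzymes rose, and 7 of 11 male-type liver genes fell. Of red blood cell markers 4 of 5 rose and Alas2 fell, with a median slope of 0.65 per 100 numbers. Of stellate cell markers 3 of 6 rose (Dcn, Colec11 and Ecm1), and of pericentral markers 3 of 11 fell (Rgn, Lect2 and Cyp2c29); the part of these cell markers was not tested. With the sex-dependent gene score in the fit 2 of 22 and 2 of 17 rose, and Slc2a2 lost its call (adjusted p = 0.138), while Slc37a4, Pklr and Pcx kept theirs.

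**Figure D5:**
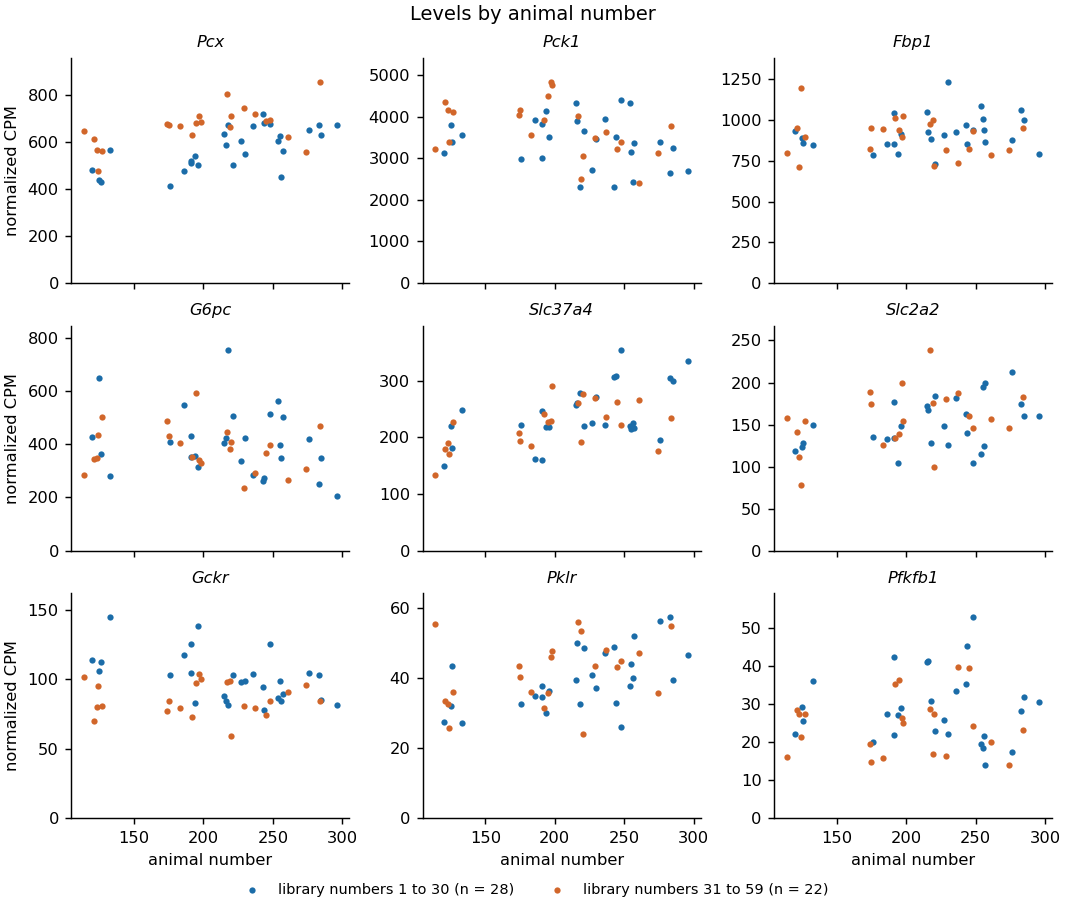
Normalized CPM of each of the 9 genes (linear axes from 0) against animal number, 1 point per liver, coloured by library series. Slc37a4, Pklr, Slc2a2 and Pcx tend to lie lower in the 9 livers below the gap in the numbers than in the 41 above it; the other 5 genes show no called trend.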

How the data were processed

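RNA of 50 mouse livers was measured by stranded RNA-seq. Per the labels and the study's methods, the authors trimmed reads, aligned them with HISAT2 to GRCm38.p5, counted them per gene with HTSeq 0.11.1, removed low genes and normalized in edgeR. The deposited values, a signal per gene, are therefore normalized CPM, and 100% of them were whole multiples of the value of 1 read to within 0.01 reads, which gave back read counts of 11965594 to 29976557 per library (0.0317 to 0.0864 CPM for 1 read). Values are on the log2(value + 0.5) scale, so folds of low genes are understated.

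All 50 samples have 1 group in the labels and none was left out. Genes with a mean of at least 1 (11436 of 12185) were fitted in limma 3.58.1 with a trended prior on library series, on animal number or on the standardized log2 level of each of the 9 genes. P-values were two-sided and adjusted over all genes by Benjamini-Hochberg, with a threshold of 0.05, and a pair was called where both directions passed. Correlations used 100000 two-sided permutations. The fits on library series and on animal number were tested on simulated counts, drawn independently for each gene. The fits on the 9 genes were not tested in this way. The members and gene lists were chosen with earlier results of these data known. Genes were named by rule: the 3 nearest in each direction and up to 4 called per list, with further called list members named after their values were seen. Gene positions are from GENCODE on GRCm38, and 12178 identifiers matched a symbol. Alternatives used edgeR 4.0.16 on whole reads, DESeq2 1.42.0 size factors, other pseudocounts and filters, covariates and fewer libraries. Depth sets a floor of 3 reads (0.0951 to 0.259 CPM), which covers counting error only and lies below every member's values.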

Additional observations from a re-analysis of the deposited data

How the results depend on the processing

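Out of 350 comparisons of a result with an alternative setting, 320 counted as the same. For that, a tested result had to stay on the same side of its threshold and a count within 1.5 times its value. A mean level had to stay within its SD over the livers. No direction of a tested result reversed. Without the 9 livers of low animal number, a check chosen after seeing the data, 855 genes instead of 1627 and 0 instead of 4 members were called with animal number, and 4 of 17 shuttle enzymes (9 in all livers) and 4 of 21 carbohydrate and insulin response genes (7 in all livers) rose; the cause was not tested beyond the smaller number of livers. With the sex-dependent gene score as a covariate 572 genes were called with animal number, 2 glycolysis and 2 shuttle enzymes rose with it, 1 carbohydrate and insulin response gene fell with Pck1 (5 without the score), and 3 shuttle enzymes (7 without) and 3 periportal markers (5 without) rose with Fbp1. Adjusting for how much of each library its 10 highest genes took, 3 shuttle enzymes and 2 periportal markers rose with Fbp1. With counted reads as a covariate 898 genes instead of 1575 were called between the series. In the 22 livers of the second series 1 pair was called, Pklr with Slc2a2, and 4 in all livers. The cause was not tested for these.

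Slc2a2 lost its call with animal number in edgeR (adjusted p = 0.0522) and without library number 24 (limma adjusted p = 0.0638). Pcx with Gckr also lost it with DESeq2 size factors (limma adjusted p = 0.0530) and counted reads as a covariate (0.0510). Pklr with Slc2a2 kept its call in every alternative run. No alternative for the pairs held animal number as a covariate, although Pklr, Slc2a2, Slc37a4 and Pcx each rose with it. No paired analysis was possible because all libraries form 1 group, so no groups share replicate numbers; the 2 animal numbers that occur on a pair of libraries do not pair groups. Depth limits none of the members' levels, since the fewest reads of a member in a library were 178, for Pfkfb1.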
